A study of Caenorhabditis elegans with 2 samples.

Results

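The pan-neuronal and synaptic genes described here are 10 of the 19973 protein-coding genes on the nuclear chromosomes of Caenorhabditis elegans. They were chosen by name for their roles in neurons, by a rule that used no binding value, although earlier results of these data were known: rgef-1, egl-21, rab-3, snb-1, unc-64, ric-4, unc-18, unc-13, unc-10 and snt-1. Binding of RBR-2, the worm homolog of the KDM5 histone demethylases, was mapped by ChIP-seq, in which DNA held by a protein is pulled down with an antibody and sequenced. Whole hermaphrodite L4 larvae of the transgenic line OP195 were used, at 56 hours from a synchronised start as starved L1 larvae. In both replicates RBR-2 carried GFP-FLAG at its C-terminus, and an untagged strain was not analysed here. There was 1 group with 2 biological replicates, so binding could be described but not compared between conditions. The labels name both anti-GFP and rbr-2 as the antibody, and which was used cannot be told from them.

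Neurons release transmitter when synaptic vesicles fuse with the cell membrane. Fusion is driven by SNARE proteins, one on the vesicle and a pair on the target membrane, which zip together under the control of proteins that prime the vesicle, hold the complex and sense calcium. Genes of this machinery, with enzymes that mature neuropeptides, are expressed in most or all worm neurons, and promoters such as that of rgef-1 are used to mark the whole nervous system. KDM5 enzymes remove methyl groups from lysine 4 of histone H3, a mark found at the starts of active genes.

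For every gene, regions of the deposited lists were taken whose summit, the point of highest signal, lay inside the gene or up to 2 kb upstream of any of its annotated transcript starts. The optimal list held 3442 regions and the pooled list 30000 regions with background included. The optimal regions were the 3442 strongest of the pooled list, so an optimal region need not be as strong in each replicate. Signal is the authors' own strength of a region, with no unit, and the weakest optimal region had a signal of 65.2. Of the 10 genes, 6 had an optimal summit in this window (60%), compared with 17.4% of all protein-coding genes. The 6 genes were rgef-1, rab-3, unc-64, egl-21, unc-13 and snb-1, and the strongest of their regions had signals from 83.1 to 251. The other 4, unc-18, unc-10, snt-1 and ric-4, had pooled regions below the optimal list, with top signals of 49.3 to 63.6. Neurons are only some of the cells of a whole worm, and weak binding in many cells and strong binding in few cells cannot be told apart.

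The sequences under the strongest optimal summits of 5 genes are shown, all of which hold the letters ATCGAT or GAGAGA. They are read 5′ to 3′ on the strand of the gene from the RefSeq WBcel235 genome (ce11). Each spans 75 bp on either side of the summit, cut where an annotated exon begins, and base 76 is the summit. The sequence of the unc-13 site is not printed, although its signal (108.2) was above that of the snb-1 site (83.1). The 201 bp around the unc-13 optimal summit held none of the motifs counted below, so the printed sequences are those with a motif. Capitals mark the motif ATCGAT, which reads the same on both strands, and GAGAGA on either strand. At egl-21 they also mark the motif GCGCGC.
rgef-1, chrV:9561900-9562050, minus strand: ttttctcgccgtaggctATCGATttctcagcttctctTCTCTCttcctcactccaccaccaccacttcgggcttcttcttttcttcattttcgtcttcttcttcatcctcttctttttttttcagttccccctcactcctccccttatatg
egl-21, chrIV:10481845-10481973, minus strand: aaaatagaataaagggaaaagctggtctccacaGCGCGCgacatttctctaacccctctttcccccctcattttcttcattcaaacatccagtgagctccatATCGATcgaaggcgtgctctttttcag
rab-3, chrII:5725210-5725360, minus strand: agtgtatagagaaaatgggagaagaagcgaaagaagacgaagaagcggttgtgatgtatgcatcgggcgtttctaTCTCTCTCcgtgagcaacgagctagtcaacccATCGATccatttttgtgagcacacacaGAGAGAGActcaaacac
snb-1, chrV:6656898-6657048, minus strand: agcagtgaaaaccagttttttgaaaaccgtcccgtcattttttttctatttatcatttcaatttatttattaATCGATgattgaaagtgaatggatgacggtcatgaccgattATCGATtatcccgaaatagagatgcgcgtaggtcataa
unc-64, chrIII:13275905-13276055, plus strand: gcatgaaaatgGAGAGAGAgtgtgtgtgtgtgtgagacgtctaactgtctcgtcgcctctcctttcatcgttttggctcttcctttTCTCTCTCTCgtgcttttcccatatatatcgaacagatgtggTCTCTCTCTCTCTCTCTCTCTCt

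The letters ATCGAT, the core bound by CUT homeodomain proteins, a family that acts on pan-neuronal genes in worms, were in the 201 bp around 4 of the 8 optimal summits at these genes. They were at the strongest summit of rgef-1, egl-21, rab-3 and snb-1, with a pair of copies in the snb-1 sequence above. Of all 3423 nuclear optimal summits, 355 had the motif in a window of the same length (10.4%). ATCGAT was in none of the windows around the strongest pooled summits of unc-18, unc-10, snt-1 and ric-4. Its share over all pooled summits was not counted, and at the 10.4% of optimal summits few such windows would hold it. GAGAGA, on either strand, was near 5 of the 8 summits, at rgef-1, rab-3 and unc-64, against 44.6% of all optimal summits. The 5 include both summits of the overlapping regions at rgef-1 and at unc-64, so the share by separate place is lower. The unc-64 sequence has GAGAGA on both sides of the summit, with the longer runs on the side towards the gene. GAGAGA was also near the strongest pooled summits of unc-18, unc-10 and snt-1, and not near that of ric-4. Its share over all pooled summits was likewise not counted. CCGCCC, the letters bound by the ARID domain of human KDM5A, were near 1 of the 8 summits, at unc-64, against 11.7% of all. TATAAA was near 2, the weaker optimal summits of rgef-1 and unc-64 (11.2% of all), and GCGCGC near 1, at egl-21 (12.2% of all). These matches are letters in a window and do not show that a factor was bound there.

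GC content in the 201 bp ranged from 34.8% at snb-1 to 53.2% at unc-13, with 47.3% at the strongest summits of both rgef-1 and rab-3. All optimal summits had a median of 45.3% and quartiles of 40.3 and 50.2%, and the nuclear genome had 35.4%. The snb-1 window and the weaker rgef-1 window (36.3%) were thus below the lower quartile of optimal summits, the unc-13 window was above the upper one, and the other 5 lay between the quartiles.

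The position of the sites differed between genes. Of the 8 optimal summits, 7 were in intergenic DNA upstream of the gene and 1, at rab-3, was in an intron. None was in a coding exon or a UTR. Only egl-21 had its site directly at the annotated start. Within 500 bp of any transcript start, 3 genes had an optimal summit, rgef-1, egl-21 and snb-1, compared with 10.3% of all genes. At unc-64 and unc-13 the site was more than 1 kb upstream. Worm transcripts are often trans-spliced, which removes their original 5′ end, so an annotated start need not be the place where transcription begins.

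**Figure D1:**
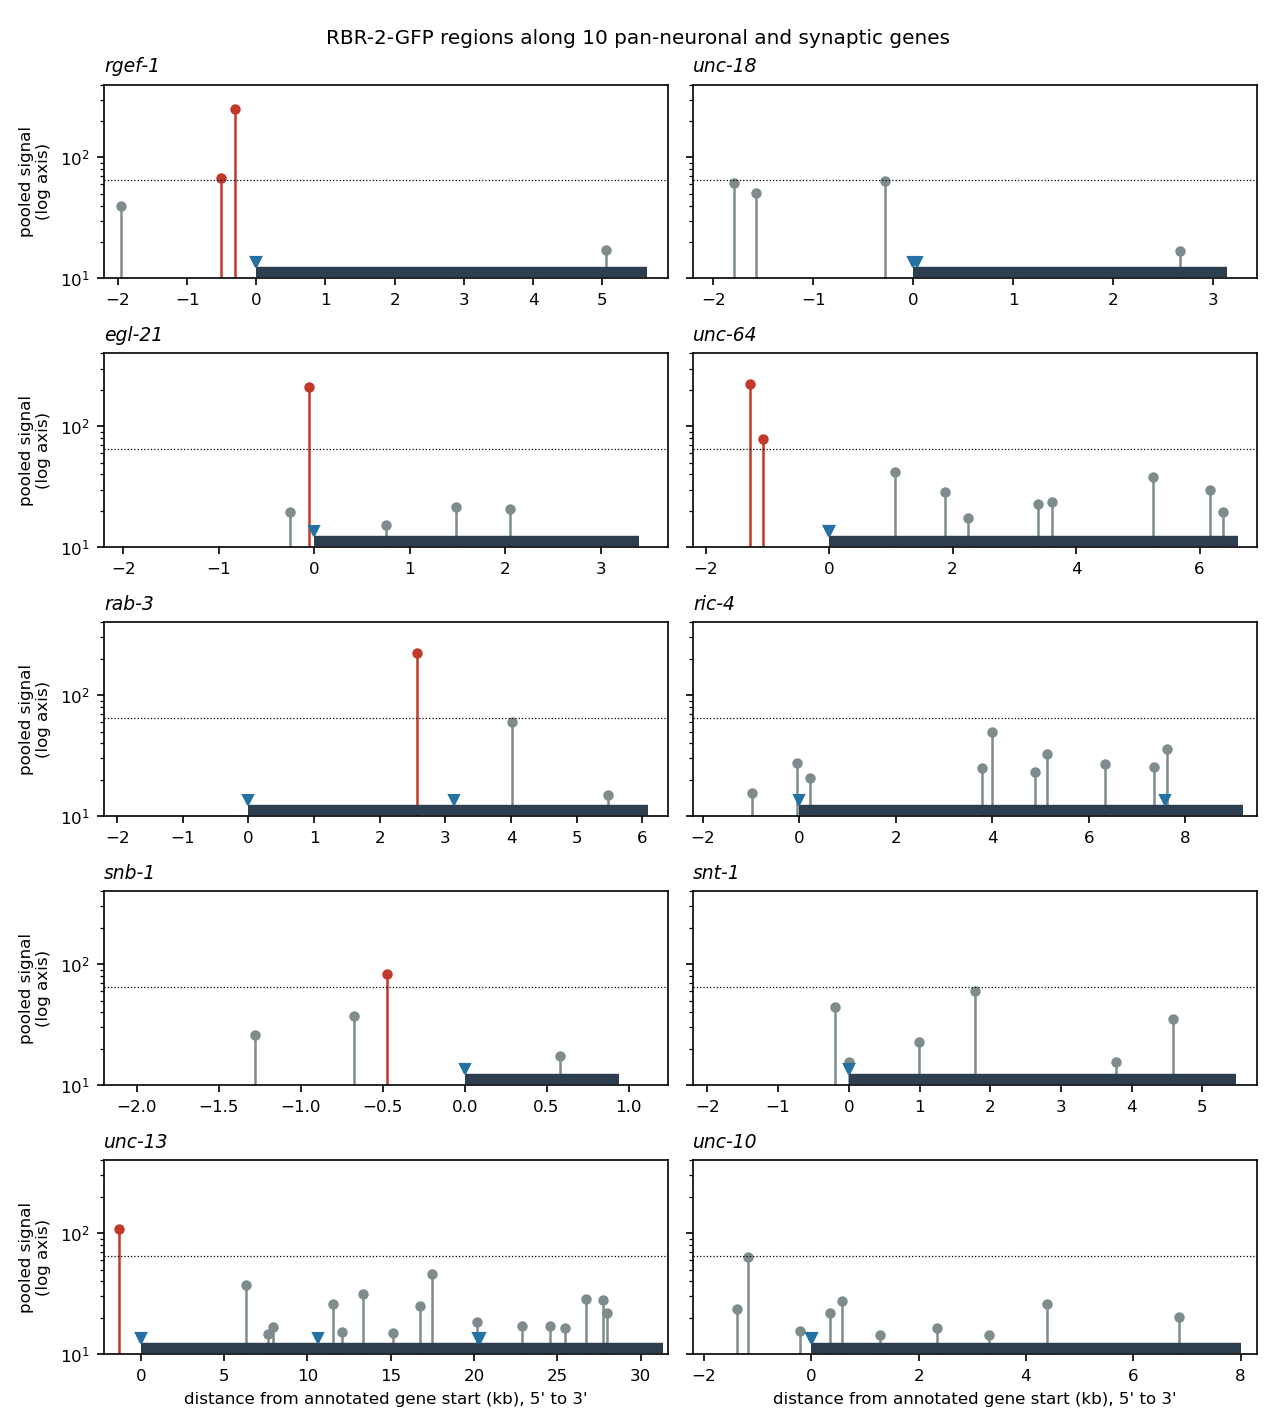
Pooled RBR-2-GFP regions along each gene, with distance from the annotated gene start in kb (upstream negative) on the x axis and signal on a log y axis. Red stems are optimal regions and grey stems weaker pooled regions, the dark bar is the gene, blue triangles are transcript starts, and the dotted line is the weakest optimal signal of 65.2. The tall red stems lie upstream of the gene in 5 panels and inside rab-3 in the sixth.

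Of the genes with a general neuronal role, rgef-1 had the strongest region of all 10. It encodes a Ras guanine nucleotide exchange factor and lies on chromosome V at 9556027 to 9561674 on the minus strand. Its main optimal region, at 9561879 to 9562112, had a signal of 251 and rank 443 in the list, with the summit 301 bp upstream of the start. The matching region had a signal of 94.3 in replicate 1 (rank 699) and 155 in replicate 2 (rank 329), so it was among the strongest 3442 of each. A second optimal region, of signal 67.1 and rank 3321, had its summit 203 bp farther out. In replicate 2 it had a region of its own (38.7), while in replicate 1 the nearest region was the main one, 189 bp away. The nearest start of another protein-coding gene, F25B3.4, was 6629 bp from the closer summit.

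egl-21 encodes the carboxypeptidase that trims neuropeptide precursors, and lies on chromosome IV at 10478442 to 10481844. Its single optimal region, 10481678 to 10482117, had a signal of 213 (rank 616) and a summit 54 bp upstream of the only annotated start. The signals were 83.8 in replicate 1 and 131 in replicate 2. The nearest start of another protein-coding gene, F01D4.5, was 1696 bp away. Another 4 pooled regions in the window had signals of 15.1 to 21.6, near the floor of that list (14.3).

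The SNARE genes differed from each other. unc-64 encodes syntaxin, on the target membrane, at 13277258 to 13283887 on chromosome III. Its main optimal region, 13275933 to 13276142, had a signal of 222 (rank 566), with 117 in replicate 1 and 112 in replicate 2. The summit was 1278 bp upstream, and the nearest start of another protein-coding gene, cpf-2, was 7097 bp away. A weaker optimal region lay 202 bp closer to the gene, with a signal of 78.8 that corresponded to 28.2 in replicate 1 and 25.6 in replicate 2. Neither of those weaker values was among the strongest 3442 regions of its replicate, which reached down to 32.3 and 36.7.

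snb-1 encodes synaptobrevin, the vesicle SNARE, and is the shortest of the 10 genes, with 940 bp on chromosome V at 6655562 to 6656501. Its optimal region, 6656753 to 6657192, had a signal of 83.1 (rank 2535), with 37.7 in replicate 1 and 47.4 in replicate 2. Both replicate values were within the strongest 3442 of their list. The summit was 472 bp upstream of snb-1 and 1524 bp upstream of syx-18, a syntaxin gene on the same strand that begins 112 bp beyond the end of snb-1. The region therefore counted for both genes in the 2 kb window, and for snb-1 alone within 500 bp.

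ric-4 encodes SNAP-25, the other SNARE of the target membrane, and had no optimal region in its window. It spans 9184 bp on chromosome V, 10261131 to 10270314, with a pair of starts far apart. The strongest of its 10 pooled regions had a signal of 49.3 (rank 4864), with 27.3 in replicate 1 and 20.6 in replicate 2, in an intron 3586 bp upstream of the shorter transcript. At that transcript's start a region of signal 36.1 had its summit 42 bp inside, in the UTR. At the start of the longer transcript the nearest summit was 43 bp upstream, with a signal of 27.5.

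Among the regulators of fusion, unc-13 encodes the Munc13 protein that primes vesicles. It is the longest of the genes, with 31332 bp at 7422785 to 7454116 on chromosome I, 11 transcripts and 5 distinct starts. Its optimal region, 7421250 to 7421689, lay 1315 bp upstream of the outermost start, with a signal of 108.2 (rank 1846). The values were 40.2 in replicate 1 and 70.3 in replicate 2, both within the strongest 3442. The next protein-coding start, that of C15A11.7, was 16430 bp away. Inside the gene, 16 pooled regions had signals of at most 45.97. The only pooled summit within 500 bp of any of its starts was 79 bp upstream of an inner start and had a signal of 18.3.

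unc-18 encodes the Munc18 protein that binds syntaxin, at 7682896 to 7686037 on the X chromosome. Its strongest pooled region, 276 bp upstream of the start, had a signal of 63.6 and rank 3538, just under the optimal list. It was among the strongest 3442 regions of replicate 2 (41.5, rank 2917) but not of replicate 1 (22.2, rank 5956). A second region, of signal 61.0, had its summit inside a tRNA gene, and inside the noncoding RNA gene F27D9.9, 1795 bp upstream of unc-18 and 482 bp upstream of the neighbouring gene stn-2. It ranked 3578 in replicate 1 and 4856 in replicate 2.

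unc-10 encodes RIM, a scaffold of the release site, at 7272317 to 7280322 on the X chromosome. Its strongest pooled region, 1183 bp upstream, had a signal of 63.4 (rank 3544). Here replicate 1 had it among its strongest 3442 (35.8, rank 2993) and replicate 2 did not (27.6, rank 5164). So unc-18 and unc-10, the genes on X, each passed in 1 replicate only, and not in the same one. Over all X genes, 18.1% had an optimal summit in the window, against 17.3% of autosomal genes.

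snt-1 encodes synaptotagmin, the calcium sensor, at 6810963 to 6816433 on chromosome II. Its strongest pooled region had a signal of 59.8 (rank 3771) and lay in an intron, 1780 bp downstream of the nearer start. It had signals of 28.6 in replicate 1 and 30.9 in replicate 2, both below the strongest 3442. Upstream of the start, 192 bp away, a region of signal 44.6 matched one of 30.9 in replicate 1. The closest region of replicate 2 had a signal of 14.4, with its summit 175 bp away.

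rab-3 encodes a small GTPase on synaptic vesicles, and lies on chromosome II at 5721767 to 5727853. Its optimal region was the shortest of the 8, with 129 bp at 5725267 to 5725395, a signal of 223 and rank 561. The replicates had 116 and 114, close to each other. The summit lay in an intron of the longer transcript, 2568 bp downstream of its start, and 555 bp upstream of the start of the shorter transcript. The nearest start of another protein-coding gene, damt-1, was 5137 bp away. No pooled summit lay within 500 bp of the longer transcript's start. Replicate 1 had a region there, 29 bp inside, with a signal of 9.03, near the floor of its list (8.79). Another intronic region, 884 bp downstream of the shorter transcript's start, had a signal of 60.6, with 27.6 in replicate 1 and 30.2 in replicate 2.

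Taking the strongest 3442 regions of each replicate in place of the optimal list, 7 of the 10 genes had a summit in the window in replicate 1 and 7 in replicate 2, against 17.3% and 17.1% of all genes. The 6 genes with an optimal region were in both sets, compared with 14.7% of all genes. The optimal list was made from these same replicates, so the overlap is not independent of it. unc-10 was added in replicate 1 and unc-18 in replicate 2. snt-1 and ric-4 were in neither.

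**Figure D2:**
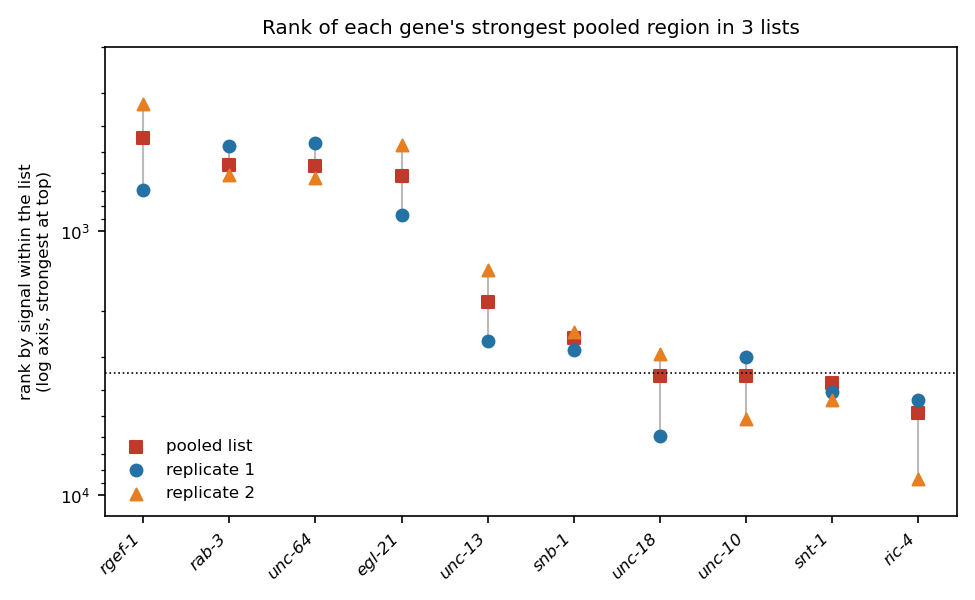
Rank by signal of each gene's strongest pooled region in the pooled list (squares), replicate 1 (circles) and replicate 2 (triangles), on a log axis with the strongest at the top. The dotted line is rank 3442, the length of the optimal list. All 3 marks lie above it for 6 genes, marks lie on both sides for unc-18 and unc-10, and all lie below it for snt-1 and ric-4.

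The genes were also ranked among all protein-coding genes by the strongest pooled signal in the window, with genes that had no region counted as 0. In that order rgef-1 was gene 531, rab-3 was 667, unc-64 was 672 and egl-21 was 731, all within the top 3.66%. The next were unc-13 at 2121 and snb-1 at 2776. The last 4 were close together, from unc-18 at 3539, unc-10 at 3544 and snt-1 at 3710 to ric-4 at 4392, or the top 22.0%. The median strongest signal was 95.6 for the 10 genes and 18.4 for all genes.

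**Figure D3:**
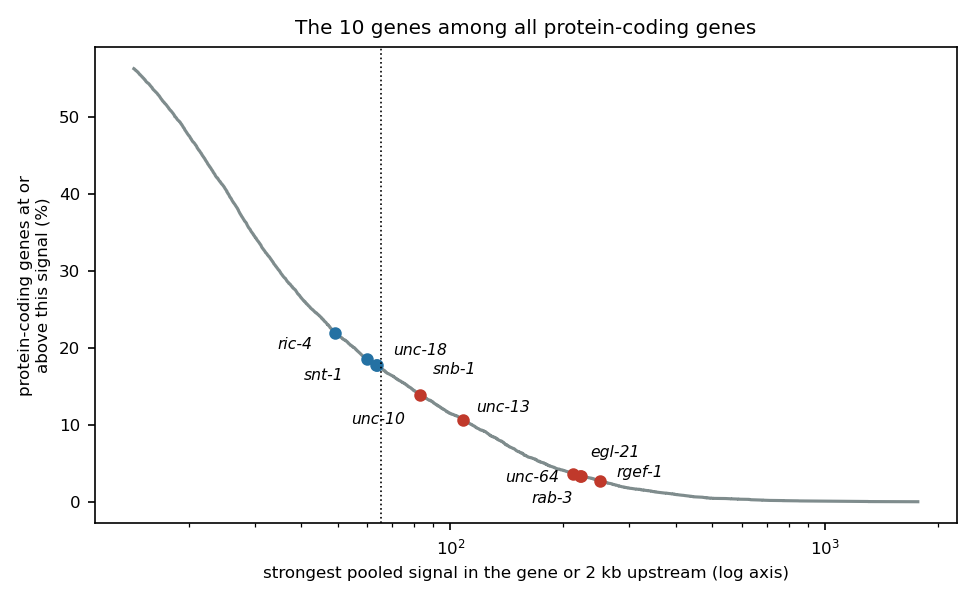
Strongest pooled signal in the gene or 2 kb upstream (log x axis) against the percentage of all protein-coding genes at or above it (y axis, grey curve). Red points are genes with an optimal region and blue points are those without, and the dotted line is the weakest optimal signal. The leading 4 genes sit together near signals of 213 to 251, and the last 4 sit just left of the line.

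The genes are longer than most, which gives a summit more room to fall in the window. Their windows had a median of 7867.5 bp, against 4027 bp for all genes. Of the 2470 genes whose windows were at least as long as that median, 31.9% had an optimal summit. Over the combined windows of the 10 genes there were 0.0801 optimal summits per kb (8 in 99.8 kb), against 0.0352 over the windows of all protein-coding genes and 0.0341 over the nuclear genome. The 8 include the overlapping pairs at rgef-1 and unc-64, described below, each counted here as separate summits. In the strongest regions of the replicates the density was 0.0701 and 0.0801 per kb.

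Each of the 10 genes also had pooled regions in its window, as 56.3% of all genes did. They numbered 73, or 0.731 per kb, against 0.309 per kb over all gene windows. The 65 that were not optimal had a median signal of 23.5 and a range of 14.4 to 63.6. Of these, 31 were in introns, 14 in coding exons, 7 in UTRs, 12 in intergenic DNA upstream and 1 in another gene. Within 500 bp of a transcript start, 8 genes had a pooled summit, against 36.1% of all genes. The exceptions were rab-3 and unc-64, although both had strong optimal regions farther away.

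An optimal region came in a pair at rgef-1 and unc-64, 2 of the 10 genes, and 2.62% of all genes had 2 or more optimal summits in the window. The gap between the summits was 203 bp at rgef-1 and 202 bp at unc-64. The smallest gap between summits in the nuclear optimal list was 199 bp, and 8.30% of its summits had a neighbour within 210 bp. Weaker pooled summits stood 203 bp from the optimal one at egl-21 and 202 bp at snb-1. Each pair consists of overlapping regions, so the 8 optimal regions mark 6 separate places. The genes most like rgef-1 in number of optimal summits and window length were F56C9.10, nsf-1 and ints-9, with gaps of 868 to 4824 bp. Those most like unc-64 were pdk-1, mltn-13 and mdt-8, of which mdt-8 also had its summits 202 bp apart.

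Other genes of the same processes were counted in the same way. Of 68 further neuronal genes, 42 had an optimal summit in the window (61.8%) and 19 had one within 500 bp of a transcript start (27.9%). Several of the 68, such as the G-protein gene egl-30, the dynamin gene dyn-1 and the Rab2 gene unc-108, are not limited to neurons. In the vesicle cycle and release list, 20 of 32 genes had an optimal summit in the window and 8 at a start. The strongest at a start were egl-30, of the Gq alpha subunit (472.5, shared with C53H9.4), syd-2, a liprin of the release site (202), dyn-1, of vesicle retrieval (181), and nsf-1, of the ATPase that separates SNARE complexes (174). The rest were rbf-1, of rabphilin (145), unc-26, of synaptojanin (119), cla-1, of the release site (94.0), and unc-104, of the kinesin that carries vesicles (86.0). In the neuropeptide list, 7 of 10 had an optimal summit in the window and 5 at a start, led by unc-108 (363). The others were pghm-1 and sbt-1, both with 140, rund-1 (119) and ric-19 (113, shared with pmlr-1).

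All 10 of the remaining pan-neuronal genes had an optimal summit in the window and 5 had it at a start, among them unc-76, of axon growth (307), unc-14 (242) and ric-3, a chaperone of acetylcholine receptors (161). The other two were jkk-1, of a kinase (157), and unc-33 (94.6). The list for transmitter synthesis and transport, whose genes serve particular classes of neuron, had 5 of 16 in the window and 1 at a start, unc-25, of GABA synthesis (89.5). cha-1 and unc-17, which share a locus, were counted for the same region. The difference between the lists was not tested. Their windows also differed in length, with medians of 10446.5 bp for the pan-neuronal genes and 6234 bp for the transmitter genes.

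The wider families of the 10 genes gave lower counts in some cases and not in others. Of 48 paralogs, 21 had an optimal summit in the window (43.8%) and 9 at a start (18.8%), with shorter windows (median 4139 bp). SNARE paralogs had 4 of 17 in the window, 1 of them the snb-1 region counted for syx-18 and 1 the region also counted for unc-36 among the further neuronal genes. The list had 1 at a start, syx-5, a syntaxin of the Golgi (280, shared with F55A11.1). Synaptotagmin paralogs had 3 of 6, among them snt-4 (202) and snt-2 (191) at their starts, while snt-1 itself had none. Of the relatives of unc-18, 3 of 4 had a summit at the start, namely sly-1 (180, shared with sip-1), vps-45 (97.2) and vps-33.2 (73.2), while unc-18 fell just below the list. Rab genes had 11 of 19 in the window and 3 at a start, rab-18 (344, shared with kbp-4), rab-14 (182) and rab-39 (75.7). Regions marked as shared lay within 500 bp of both genes. In the wider window the strongest region also counted for a neighbour at, among others, rab-5 (nmat-2), rab-7 (mex-1), rab-10 (knl-2) and snt-2 (rps-29). The same held for nsf-1 (adr-1) of the further neuronal genes. Neither of the 2 metallocarboxypeptidase paralogs of egl-21 had an optimal summit.

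**Figure D4:**
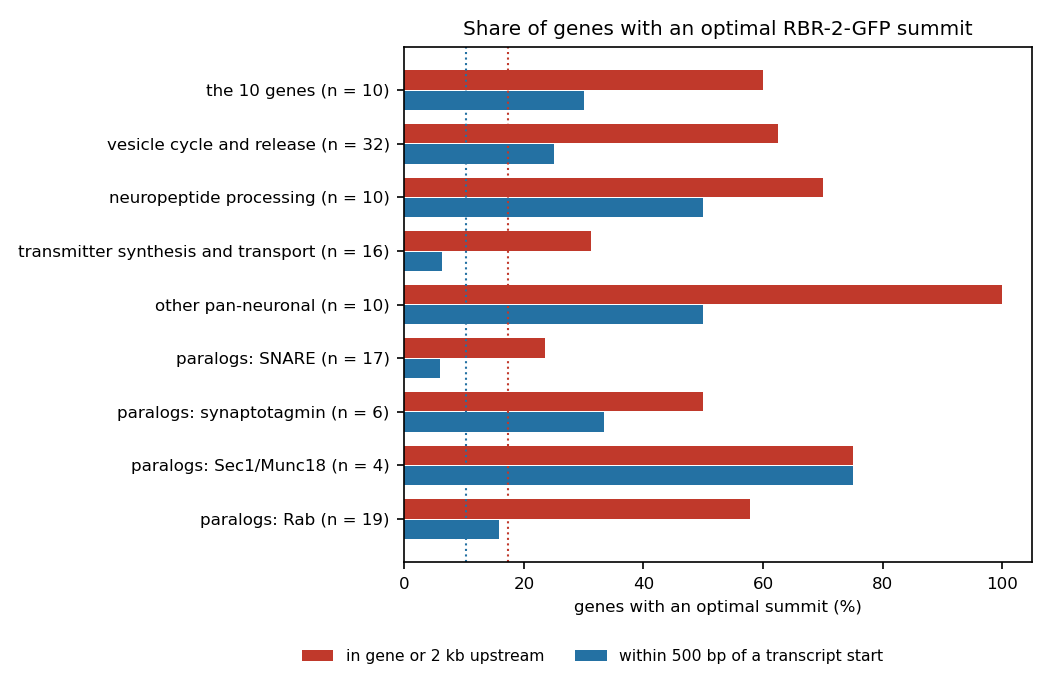
Percentage of genes in each list with an optimal summit in the gene or 2 kb upstream (red bars) or within 500 bp of a transcript start (blue bars), with the number of genes beside each name. Dotted lines show the same percentages over all protein-coding genes, 17.4% and 10.3%. The red bar of the 10 genes reaches 60%, and the lowest red bars drawn are SNARE paralogs and transmitter synthesis and transport. The 2 metallocarboxypeptidase paralogs, with none, are not drawn.

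ATCGAT was in the window around 14 of 58 optimal summits of the further neuronal genes (24.1%) and 5 of 23 of the paralogs (21.7%), compared with 10.4% of all optimal summits. GAGAGA was near 35 of the 58 (60.3%) and 6 of the 23 (26.1%), compared with 44.6%. These shares are descriptions of lists of unequal size, and their differences were not tested.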

How the data were processed

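ChIP-seq regions from 2 replicates of 1 group were used in build ce11. Per the deposited notes, replicate alignments with a control gave the replicate lists, both alignments together gave the pooled list, and the optimal list came from these. The optimal list is labelled as thresholded by IDR, a measure of reproducibility between replicates. The sources used here do not name the caller or its thresholds. The signal column, as deposited by the authors, ranked regions within a list. Files hold no read counts, so depth is unknown. The optimal list equalled the 3442 strongest pooled regions.

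Genes and transcripts came from Ensembl release 115 (WBcel235) and sequence from RefSeq WBcel235, the same assembly. Summits were assigned with Python 3.11.15 and pandas 2.3.3, and the assignment was tested on simulated summits. Replicate regions were matched within 200 bp. Mitochondrial regions were left out. No significance test was run, since there were no groups to compare.

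The members and gene lists were chosen with earlier results of these data known. The genes named were all members, up to 8 genes per list by signal at a start, the nearest other gene to each optimal summit, and the 3 genes most like rgef-1 and unc-64. Other neighbours, and the genes that share a region with them, were named after their values were seen.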

Additional observations from a re-analysis of the deposited data

How the results depend on the processing

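Of 43 alternatives, 35 stayed within 1.5 times the reported count or, for density, within the spread between replicates (0.00708 per kb). The count limit was wide, since a fall from 6 genes to 4 or a rise to 9 stayed within it. The spread came from only 2 densities, those of the replicates. They were also the densities with a replicate left out, so the spread cannot judge those alternatives. With the stronger 50% of the optimal list, optimal regions of the 10 genes fell from 8 to 4 (0.0401 per kb), at rgef-1, rab-3, unc-64 and egl-21, and 9.98% of all genes had a summit. With 1 kb upstream they numbered 5 (0.0557 per kb), since the unc-13 and unc-64 sites dropped out, and 4 genes had a summit, against 14.2% of all genes. With 5 kb they numbered 13 (0.100 per kb) and 9 genes had a summit, against 24.5% of all. The 5 kb window added regions at ric-4 (signal 113, 3672 bp upstream), snt-1 (119, 2253 bp) and unc-10 (177, 4569 bp). It also added second sites at snb-1 (177, 2439 bp) and egl-21 (123, 2055 bp). The added snb-1 site was stronger than the one within 2 kb (83.1) and lay 3491 bp from the start of syx-18. Of the added sites, the ric-4 site was closer to the start of Y22F5A.11 (1660 bp), the snt-1 site to that of F31E8.5 (1448 bp) and the egl-21 site to that of ced-5 (211 bp). Within 250 bp of a start, 1 of the 10 genes, egl-21, had an optimal summit, against 6.68% of all genes. Leaving out a replicate meant taking the strongest 3442 regions of the other, so its genes, regions and density repeat values given above. These were 7 genes either way, 7 to 8 regions and 0.0701 to 0.0801 summits per kb. The lower density, without replicate 2, was outside the limit. At a start there were 3 to 4 of the 10 genes, 19 to 21 further neuronal genes and 7 to 9 paralogs. Matching summits within 100 bp left 7 of 8 optimal regions with a partner in both replicates, the weaker rgef-1 region lacking one in replicate 1. No paired analysis was possible because there was 1 group. Without read counts, no error can be given for the signal of any one region.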
